A study of Mus musculus with 16 samples.

Results

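Chromatin accessibility was examined at 6 genes of early embryonic identity, Pou5f1, Nanog, Gdf3, Utf1, Lin28a and Lin28b, in mouse embryonic stem cells (ESCs) on their way to anterior neural progenitor cells (antNPCs). In each of 16 omni-ATAC libraries (a form of ATAC-seq, in which a transposase cuts open chromatin), the 50000 peak intervals with the highest −log10 p were kept. An interval belonged to a gene where the protein-coding transcription start site (TSS) nearest to its summit was that gene's and lay within 100 kb (mm10, GENCODE M21). By this rule 400 of 800000 kept intervals belonged to the 6 genes, with 20 to 29 in a library. Intervals were merged over libraries into regions, each held by at least 2 libraries. Of the 400, 397 overlapped 34 regions of these genes, among 80595 regions in all, and 3 overlapped none of the 34.

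The libraries formed 8 groups of 2. On day 3 these were Tet1 knockout (KO) cells given XAV939 (XAV), which blocks Wnt signalling, untreated KO cells, Tet1 catalytic mutant (MUT) cells, wild type (WT) cells given CHIR99021 (CHIR), which inhibits GSK3 and so turns Wnt signalling on, and untreated WT cells. XAV and CHIR were added from day 2. On day 2 they were KO, MUT and WT cells, all untreated. Every line was B6129S6F1 and came from the Tet1 tm1Koh cross, and basic FGF was in the medium of every group up to day 3. The KO lines KO1 and KO15 (replicates 1 and 2) served on both days and with XAV. The MUT lines CM59 and CM69 are clones in which both alleles of the catalytic domain were edited by Cas9 with a repair template in line WT7. Untreated WT cells were lines WT70 and WT72, whereas CHIR was given to WT7 and WT34, so line and CHIR cannot be told apart. The labels name no group with vehicle alone.

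TET1 oxidises methylated cytosine in DNA and also acts apart from that activity, so KO cells lack the protein and MUT cells its catalysis. The proteins of the 6 genes act at successive levels. POU5F1 (OCT4) and NANOG are DNA-binding transcription factors of the pluripotency network, and OCT4 often binds side by side with SOX2 at a composite OCT-SOX element. GDF3 is a secreted ligand of the TGF-β superfamily related to NODAL. UTF1 is a chromatin-associated protein of undifferentiated cells whose gene is a classical OCT4 and SOX2 target. LIN28A and LIN28B are RNA-binding proteins that block the maturation of let-7 microRNAs, which favour differentiation. These genes are known for their expression in pluripotent cells and early epiblast.

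The sequences of 5 regions are shown because the results turn on them or because they hold an OCT-SOX composite. Each is 300 bp around the summit, on the strand of the gene, from the RefSeq genome GRCm38.p6, and is named by gene and distance to the TSS. Capitals in Pou5f1 -2014 mark a KLF match (GGGNGTGG) and then an OCT-SOX composite, which is also in capitals in Utf1 +1879. They mark a TEAD match (GGAATG) in Gdf3 +1475, a TCF/LEF match (ATCAAAG) in Nanog -3589, and a SOX match (ACAATGG) followed by a KLF match in Lin28b +23813. Matches may lie on either strand.
Pou5f1 -2014 (chr17:35503855-35504154, plus strand): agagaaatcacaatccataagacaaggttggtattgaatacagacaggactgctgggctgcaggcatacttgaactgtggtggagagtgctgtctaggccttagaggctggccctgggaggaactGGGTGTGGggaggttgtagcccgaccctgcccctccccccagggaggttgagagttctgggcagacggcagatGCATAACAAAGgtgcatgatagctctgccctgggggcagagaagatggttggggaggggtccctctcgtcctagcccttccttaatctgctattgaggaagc
Utf1 +1879 (chr7:139945519-139945818, plus strand): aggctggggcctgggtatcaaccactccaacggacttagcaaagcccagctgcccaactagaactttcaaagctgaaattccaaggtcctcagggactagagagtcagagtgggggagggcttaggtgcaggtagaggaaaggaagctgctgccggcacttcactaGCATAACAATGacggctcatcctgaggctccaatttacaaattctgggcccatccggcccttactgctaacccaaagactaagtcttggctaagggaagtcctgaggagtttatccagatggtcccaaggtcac
Gdf3 +1475 (chr6:122608463-122608762, minus strand): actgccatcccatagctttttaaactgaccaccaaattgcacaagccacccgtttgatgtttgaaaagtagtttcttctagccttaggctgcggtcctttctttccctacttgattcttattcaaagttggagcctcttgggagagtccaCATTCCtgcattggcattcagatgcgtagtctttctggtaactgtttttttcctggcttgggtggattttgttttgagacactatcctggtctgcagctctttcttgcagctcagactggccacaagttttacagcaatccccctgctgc
Nanog -3589 (chr6:122703751-122704050, plus strand): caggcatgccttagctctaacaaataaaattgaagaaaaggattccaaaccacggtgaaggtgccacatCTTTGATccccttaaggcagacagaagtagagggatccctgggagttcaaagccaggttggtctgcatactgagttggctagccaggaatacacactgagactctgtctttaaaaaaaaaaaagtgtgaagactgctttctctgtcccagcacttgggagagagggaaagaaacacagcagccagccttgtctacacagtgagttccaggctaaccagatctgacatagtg
Lin28b +23813 (chr10:45446239-45446538, minus strand): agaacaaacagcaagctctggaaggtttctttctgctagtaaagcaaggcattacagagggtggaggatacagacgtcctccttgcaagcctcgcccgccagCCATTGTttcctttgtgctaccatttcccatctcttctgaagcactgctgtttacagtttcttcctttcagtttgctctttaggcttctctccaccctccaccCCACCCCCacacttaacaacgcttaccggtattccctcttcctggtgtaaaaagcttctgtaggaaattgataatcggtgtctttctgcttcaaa

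The composite, an OCT half-site side by side with a SOX half-site, was searched on both strands after these sequences had been seen, and it may overlap OCT and SOX matches. It was present in 3 of the 34 regions, Pou5f1 -2014, Nanog -7 and Utf1 +1879, and in 0.465% of all 80595 windows of the same length. As the composite was added with these sequences in view, that count is a description and no test of enrichment. The strict octamer ATGCAAAT was in 0 of 34 regions, against 2.78% of all. The SOX motif was in 1 region (4.12% of all), TCF/LEF in 1 (4.98%), TEAD in 6 (18.4%), KLF in 8 (17.8%), OTX (GGATTA) in 4 (8.7%) and ESRRB (TCAAGGTCA) in 0 (0.437%). These are letter matches and carry no evidence of binding.

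A pair of readings was taken of each region, its state and its level. A region was open in a library where it overlapped a kept interval, and its level was column 7 of the strongest deposited peak over it, the authors' fold enrichment at the summit over local background. Levels are given as fold enrichment below. In bulk libraries, fewer cells with a region open and less opening per cell cannot be told apart. Of the 34 regions, 11 were open in all 16 libraries, and 33.6% of all regions were. The number open ran between 20 and 31 per library, with 22 and 20 in the CHIR libraries as the smallest, against 26 in both untreated WT libraries of day 3. Utf1 was the gene with the most regions (9), followed by Nanog and Lin28a (7 each), Pou5f1 (5), Lin28b (4) and Gdf3 (2). More than 3 kb from every protein-coding TSS lay 19 of the 34, and 70.3% of all regions did.

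**Figure D1:**
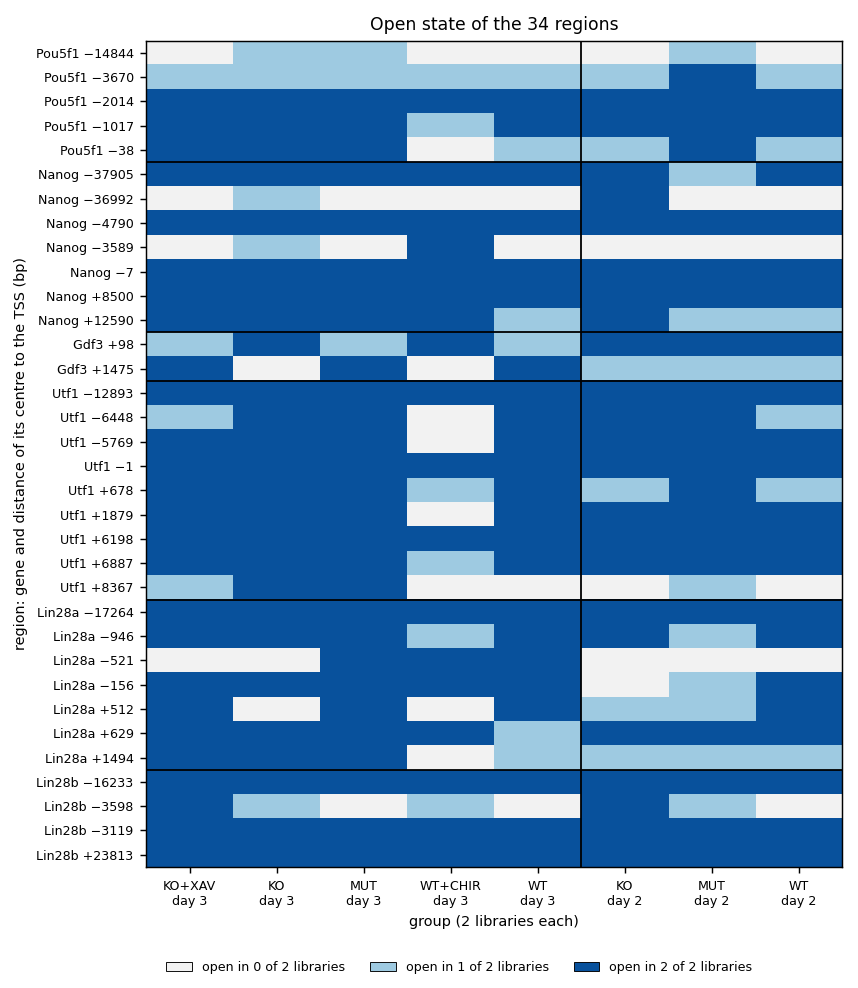
Open state of the 34 regions (rows, by gene and distance in bp to the TSS) in the 8 groups (columns). Colour gives in how many of the 2 libraries a region was open, and Utf1 -6448, Utf1 -5769 and Utf1 +1879 were open in 0 of 2 CHIR libraries and in 2 of 2 untreated WT libraries of day 3.

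Library quality bears on these states. The deposited lists held 135359 to 219047 unique intervals, and the 50000th had a −log10 p of 6.84 to 21.8. KO replicate 2 of day 3 stood apart, with the fewest intervals, the lowest −log10 p and the lowest median level (5.88). By promoter state (within 1 kb of the TSS), 7 to 9 of 10 epiblast markers were open in every library, and 4 to 5 of 5 primitive streak and 2 to 4 of 4 neural markers. The epiblast markers include the 6 genes of this report, so they are no independent check of cell type. Lin28b had no region within 1 kb and could not be counted as open. Of 8 fibroblast markers, checked because ESCs grow on feeders, 4 to 5 were open and Col3a1, Postn and Lum were open in 0 libraries. Trophoblast markers were open at 2 to 4 of 5, and all 5 markers of extraembryonic endoderm were open in every library. The part of other cell types in the results was not tested.

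Differences in level were tested with limma on quantile-normalized log2 values over the 56543 regions with a deposited peak in all 16 libraries, which included 28 of the 34. The levels printed for single libraries are not normalized, so a gap between pairs can be larger or smaller than the log2 difference beside it. With CHIR in WT cells, 1 of 28 was higher, at the Gdf3 promoter (3.33% of all tested regions were), and 1 was lower, near Utf1 (5.94%). Between day 3 and day 2, 0 were higher (5.4%) and 1 was lower, in Lin28b (7.61%). For KO with XAV against KO, 0 were higher (1.2%) and 0 lower (0.485%), with 0 and 1 at an unadjusted p under 0.05 (4605 and 3458 of all 56543). For KO against WT on day 3, 0 were higher (0.447%) and 0 lower (0.895%), with 3 and 2 at an unadjusted p under 0.05 (3195 and 4100 of all). For MUT against WT on day 3, 0 were higher (0%) and 0 lower (0%), with 1 and 1 at an unadjusted p under 0.05 (1502 and 1793 of all). On day 2 the counts were 0 higher and 0 lower for KO (0.00177% each way) and likewise for MUT (0% each way). At an unadjusted p under 0.05 were none for KO on day 2 (1110 and 1514 of all) and 1 and 1 for MUT (894 and 1151 of all). A call is an adjusted p under 0.05 after Benjamini-Hochberg adjustment over all tested regions.

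Gained regions were open in every library of the first group and in none of the second, and lost regions the reverse. These states are given with no test. For groups of 2 an exact two-sided permutation test cannot go below p = 0.33, and the comparison between days, with 6 libraries each, is described in the same way. With CHIR, 5 of 34 regions were lost (9.02% of all regions) and 1 was gained (11%). In KO against WT on day 3, 3 were lost (4.2%) and 1 gained (3.93%), and in MUT against WT 0 were lost (1.93%) and 1 gained (1.9%). KO with XAV against KO had 2 gained (4.89%) and 0 lost (4.16%). On day 2, KO against WT had 1 lost (2.17%) and 2 gained (1.97%), and MUT against WT had 0 lost (1.63%) and 0 gained (1.73%). Between the 6 untreated libraries of day 3 and the 6 of day 2, 0 were gained (0.302%) and 0 lost (0.753%).

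**Figure D2:**
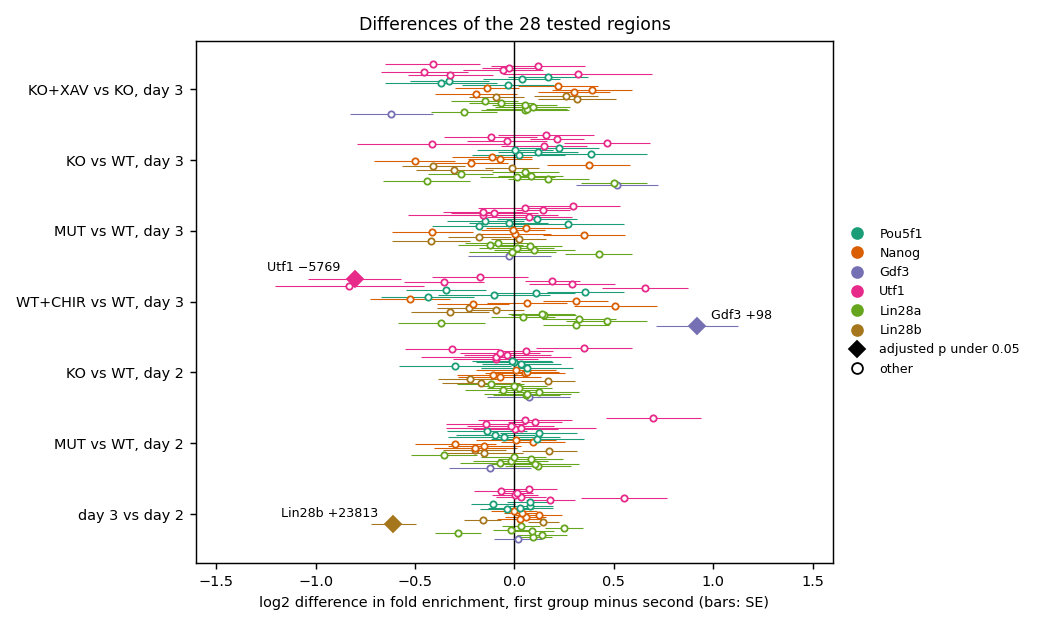
Difference in level of the 28 tested regions (log2 scale, first group minus second) in the 7 comparisons, 1 point per region with its standard error, coloured by gene. The filled diamonds, with an adjusted p under 0.05, are Gdf3 +98 (0.92) and Utf1 -5769 (-0.80) with CHIR and Lin28b +23813 (-0.61) between days.

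The promoters stayed open in most libraries. The promoter regions of Nanog (Nanog -7, chr6:122707315-122707658) and Utf1 (Utf1 -1, chr7:139943623-139943950) were open in all 16 libraries. That of Gdf3 (Gdf3 +98, chr6:122609825-122610172, reaching into the UTR) was open in 13. That of Lin28a (Lin28a -156, chr4:134018689-134019174, in an intron of the overlapping gene Gm13061) was open in 13, and that of Pou5f1 (Pou5f1 -38, chr17:35505810-35506147) in 11. Pou5f1 -38 was closed in both CHIR libraries. It was open in 1 of 2 untreated WT libraries of day 3, so it does not count as lost. On day 2 it was open in 1 of 2 KO and 1 of 2 WT libraries. Lin28b had no region within 1 kb of the TSS used, and its nearest one, Lin28b -3119 (chr10:45473153-45473484, in an intron), was open in all 16. That region lies upstream of this TSS and yet in an intron of Lin28b, so the annotated gene reaches further upstream. Whether Lin28b has an open promoter there was not assessed.

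**Figure D3:**
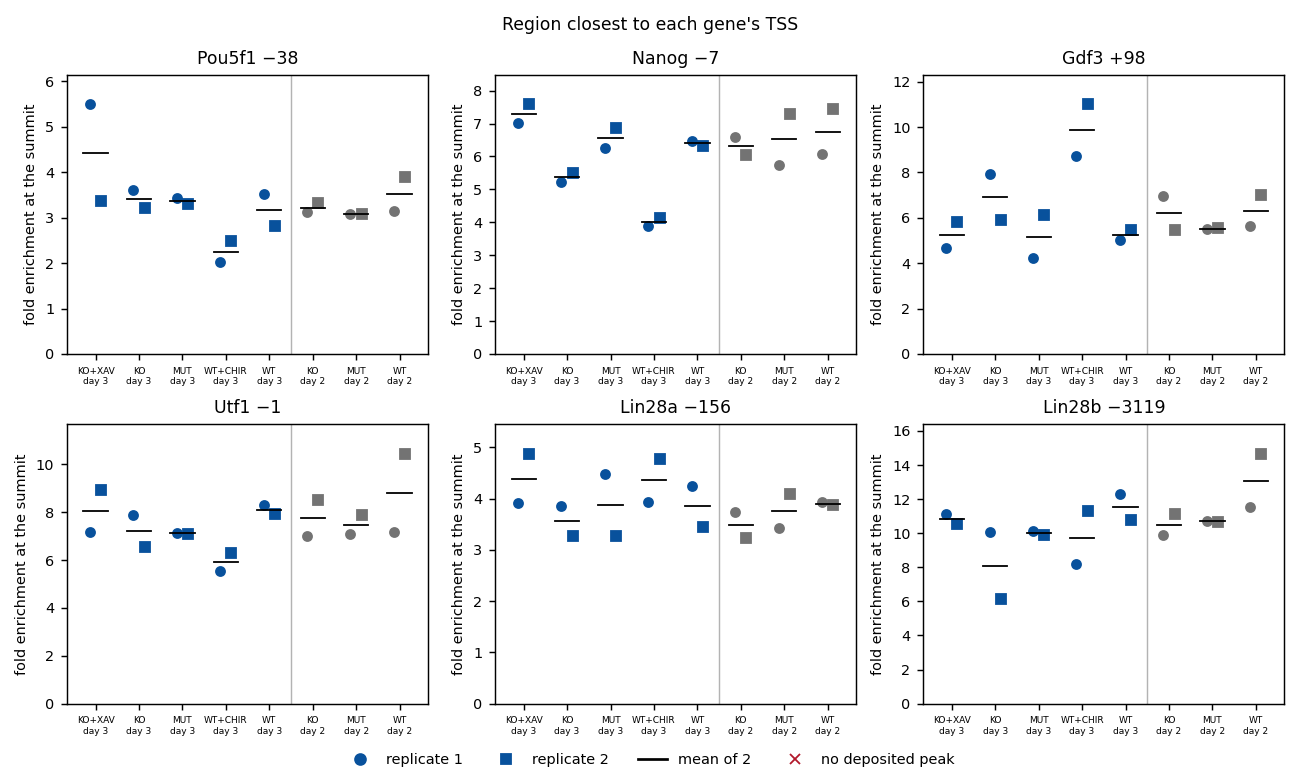
Level (fold enrichment at the summit, axis from 0) of the region closest to each gene's TSS, by group. Circles and squares are replicates 1 and 2, bars their mean, blue day 3 and grey day 2, and Gdf3 +98 was highest in the CHIR libraries (8.74 and 10.99).

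Of the 5 genes with a region within 1 kb of the TSS, Pou5f1 had the lowest median promoter level (3.27). Pou5f1 -38 had a level of 5.49 and 3.37 in KO cells with XAV, 3.60 and 3.22 in KO cells, 3.44 and 3.31 in MUT cells, 2.02 and 2.49 in WT cells with CHIR and 3.53 and 2.81 in WT cells on day 3. On day 2 it had 3.12 and 3.32 in KO cells, 3.08 and 3.08 in MUT cells and 3.14 and 3.90 in WT cells. The 5.49 in replicate 1 of KO with XAV is also the value of Pou5f1 -1017 in that library, from 1 deposited peak. The CHIR libraries were the lowest 2 of the 16 and did not overlap untreated WT cells, but the log2 difference of -0.34 did not pass (limma, SE 0.20, adjusted p = 0.349).

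Upstream of Pou5f1 lie a distal enhancer of naive cells and a proximal enhancer of the epiblast, whose positions were not mapped here. Pou5f1 -2014 (chr17:35503824-35504167), with the OCT-SOX composite, was open in all 16 libraries at a level between 3.47 and 4.96. Pou5f1 -1017 (chr17:35504800-35505328) had the highest median level of the gene (5.20) and was open in 15. Its level was 3.20 and 3.92 in WT cells with CHIR, against 5.40 and 5.16 in untreated WT cells of day 3. The CHIR libraries were the lowest 2 of the 16, yet the difference of -0.44 (SE 0.23) did not pass (limma, adjusted p = 0.293). The remaining Pou5f1 regions were open in 9 libraries at -3670 and in 3 at -14844.

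Nanog kept its promoter and 2 flanking regions, Nanog -4790 and Nanog +8500, open throughout. Nanog -7, which holds the composite, had a level of 7.03 and 7.58 in KO cells with XAV, 5.23 and 5.50 in KO cells, 6.27 and 6.86 in MUT cells, 3.88 and 4.14 in WT cells with CHIR and 6.46 and 6.33 in WT cells on day 3. The CHIR pair was the lowest of all libraries, the KO pair came next, and neither overlapped WT. The log2 difference was -0.52 (SE 0.20, adjusted p = 0.121) for CHIR against WT and -0.11 (adjusted p = 0.880) for KO against WT, and neither passed in limma. The CHIR difference passed without normalization (-0.67, adjusted p = 0.0463) and among the regions open in all libraries (-0.67, adjusted p = 0.0098). Nanog +8500 (chr6:122715835-122716253) was the region of the gene with the highest median level (9.63).

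Upstream of the promoter a further region of Nanog had its highest levels with CHIR. Nanog -3589 (chr6:122703729-122704055, intergenic), with the TCF/LEF match, had a level of 4.87 and 5.54 in WT cells with CHIR, where it was open in both libraries, against 2.43 and 2.83 in untreated WT cells, where it was closed. The other day 3 levels were 2.73 and no peak in KO cells with XAV, 3.56 and 3.44 in KO cells and 3.11 and 2.20 in MUT cells. On day 2 it was 3.64 and 2.76 in KO cells, and MUT and WT cells had no deposited peak. The CHIR pair lay above every other library.

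Nanog -3589 was open in 3 libraries, the CHIR pair and 1 KO library of day 3, so without CHIR it would have been held by 1 library and left out of the regions. The difference between CHIR and WT is therefore a description with no test. In the limma fit of all 80595 regions, in which the 5 libraries without a peak were given their own lowest level, it was among 2 of the 34 regions counted higher with CHIR (9.99% of all regions). That count includes a region admitted by the CHIR libraries themselves. That fit also gave a lower level in KO cells with XAV than in KO cells (-1.14, SE 0.27, adjusted p = 0.0275, 2.59% of regions called), where XAV replicate 2 had no peak and was filled. Its call between days (0.62, SE 0.16, adjusted p = 0.0165, 9.59%) includes 4 filled libraries of the 6 of day 2.

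The remaining Nanog regions varied without a call. Nanog -36992 (chr6:122670294-122670691) was gained in KO cells on day 2, with a level of 5.96 and 4.97 in KO cells and 4.33 and 4.42 in WT cells. The KO pair lay above the WT pair. Without the KO libraries of day 2 this region would have been held by 1 library, so the difference has no test. Nanog -37905 and Nanog +12590 were open in 15 and 13 libraries.

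Gdf3, the ligand gene, had 2 regions, 1 higher and 1 lost with CHIR. Gdf3 +98 had a level of 8.74 and 10.99 in WT cells with CHIR, against 5.03 and 5.45 in untreated WT cells of day 3. The CHIR pair lay above all 14 other libraries, which ran between 4.22 and 7.91. The log2 difference was 0.92 (SE 0.21), a 1.89-fold higher level (limma, adjusted p = 0.00857). The call was lost without CHIR replicate 2 (0.81, adjusted p = 0.0858) and without WT replicate 1 (0.76, adjusted p = 0.0986).

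At the same promoter, KO cells on day 3 had 7.91 and 5.89 and KO cells with XAV 4.68 and 5.79, and MUT cells had 4.22 and 6.11. The KO pair lay above both the XAV pair and the WT pair. Neither KO with XAV against KO (-0.62, SE 0.21, adjusted p = 0.163) nor KO against WT (0.52, SE 0.21, adjusted p = 0.281) passed in limma. Both comparisons use the same KO libraries. On day 2 the levels were 6.94 and 5.46 in KO cells, 5.49 and 5.57 in MUT cells and 5.63 and 6.99 in WT cells, and the groups overlapped.

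Gdf3 +1475 (chr6:122608430-122608779), in the intron of the gene, was closed in both CHIR libraries and in both KO libraries of day 3, and open in both libraries of KO with XAV, MUT and untreated WT cells. Neither CHIR library had any deposited peak there. The level was 6.35 and 6.28 in KO cells with XAV, 3.20 and 2.94 in KO cells, 6.86 and 5.47 in MUT cells and 7.24 and 5.41 in WT cells. The KO pair was thus the lowest of all libraries with a peak, below the day 2 range of 3.82 to 6.03.

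With the 2 CHIR libraries filled at their lowest level, limma gave a log2 difference of -1.04 for KO against WT on day 3 (SE 0.27, adjusted p = 0.0473, 2.61% of all regions called lower). All 4 libraries of that contrast had a peak. The call was lost with the CHIR libraries filled at a level of 1 (-1.09, adjusted p = 0.0676), and without KO replicate 1 (-0.74, adjusted p = 0.187), WT replicate 1 (-0.96, adjusted p = 0.213) or WT replicate 2 (-1.14, adjusted p = 0.114). KO with XAV against KO gave 0.95 (SE 0.27, adjusted p = 0.0674), which passed without KO replicate 2, the library that stood apart (1.22, adjusted p = 0.0352). CHIR against WT gave -2.11 (adjusted p = 7.92e-05, 13.1% called lower), or -2.60 with a fill of 1. Both CHIR values are filled, so the size and the adjusted p rest on the fill. On day 2 the levels were 4.59 and 3.82 in KO cells, 4.02 and 5.30 in MUT cells and 4.57 and 6.03 in WT cells. KO and WT overlapped there (-0.21, adjusted p = 1.00), and the change of the difference between days was not tested in this region.

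**Figure D4:**
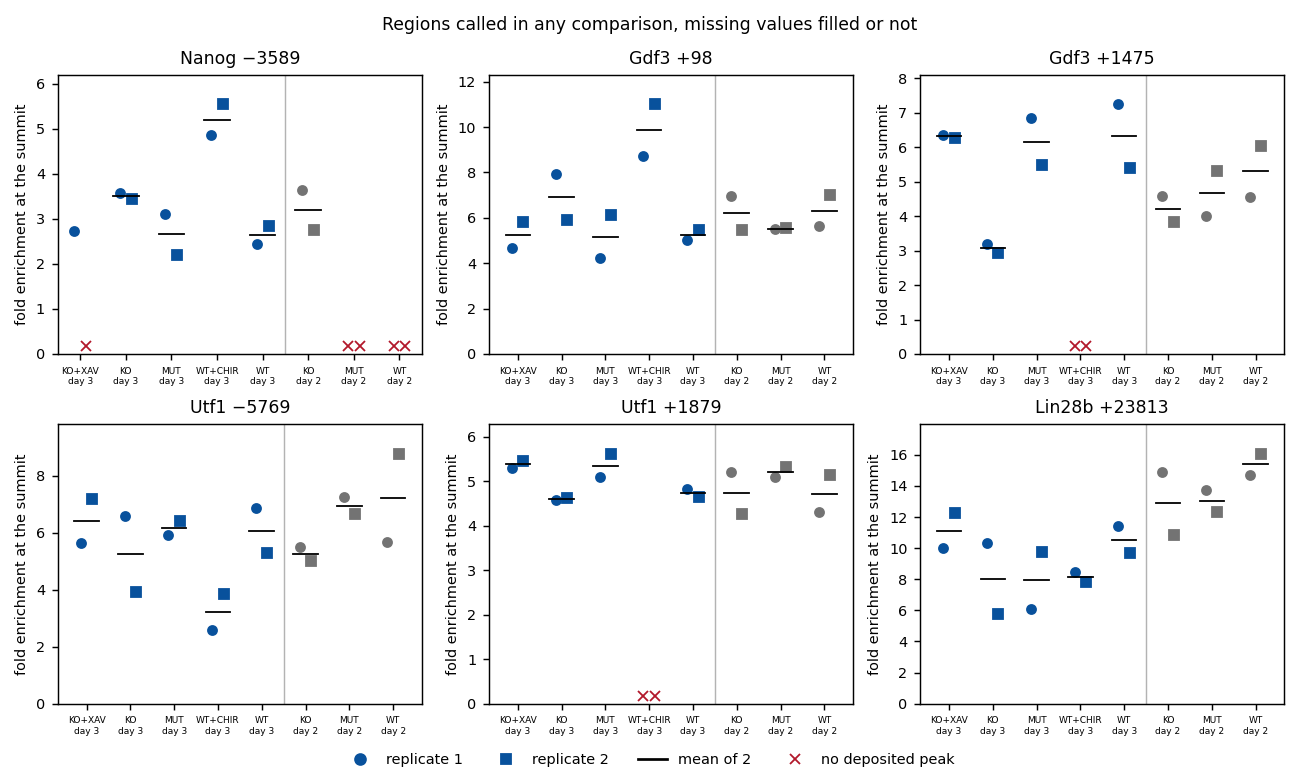
Level (fold enrichment at the summit, axis from 0) by group at 6 regions near Utf1, Gdf3, Nanog and Lin28b. Circles and squares are replicates 1 and 2, bars the mean where both have a peak, and red crosses at the foot mark libraries with no deposited peak, as in both CHIR libraries at Utf1 +1879 and Gdf3 +1475.

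With CHIR, Utf1 lost 3 of 9 regions, Gdf3 1 of 2 and Lin28a 1 of 7, where 9.02% of all regions were lost. Pou5f1 lost 0 of 5, Nanog 0 of 7 and Lin28b 0 of 4. The 3 Utf1 losses are not separate, since Utf1 -6448 and Utf1 -5769 had the same value in 6 libraries. The Utf1 promoter stayed open. Utf1 +1879 (chr7:139945497-139945833, intergenic, downstream of the gene, and holding the composite) was open in all 14 libraries other than CHIR. Its level was 5.30 and 5.47 in KO cells with XAV, 4.57 and 4.64 in KO cells, 5.09 and 5.61 in MUT cells and 4.82 and 4.66 in WT cells on day 3. The CHIR libraries had no deposited peak. On day 2 it was 5.22 and 4.27 in KO cells, 5.11 and 5.33 in MUT cells and 4.31 and 5.14 in WT cells, so these 14 libraries lay within 4.27 and 5.61.

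Utf1 is known to have a downstream enhancer bound by OCT4 and SOX2, and Utf1 +1879 lies on that side of the gene. With the CHIR libraries filled, the log2 difference in limma was -1.70 (adjusted p = 0.00012) with their lowest level and -2.18 (adjusted p = 3.57e-05) with a fill of 1. In the fit with their lowest level, 13.1% of all regions were called lower with CHIR. Leaving out each library of the comparison in turn kept the difference between -1.78 and -1.62. Both CHIR values are filled, so the size, the adjusted p and this range rest on the fill and add no evidence beyond the missing peaks. KO with XAV against KO gave -0.01 (SE 0.23) and KO against WT on day 3 gave 0.10 (SE 0.23) in the same fit.

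Utf1 -5769 (chr7:139937850-139938184, in a coding exon of the neighbouring gene Kndc1) had a level of 2.58 and 3.87 in WT cells with CHIR, against 6.87 and 5.29 in untreated WT cells of day 3. The CHIR libraries were the lowest 2 of the 16 and were closed, and all 14 others were open. The log2 difference was -0.80 (SE 0.24, limma, adjusted p = 0.0388). The call was lost in a fit of these 4 libraries alone (adjusted p = 0.0881), without normalization (-0.93, adjusted p = 0.0765), without CHIR replicate 1 (-0.53, adjusted p = 0.347), and without WT replicate 1 (-0.72, adjusted p = 0.192) or WT replicate 2 (-0.89, adjusted p = 0.0939).

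The nearby Utf1 -6448 (chr7:139937155-139937538), in an exon of Kndc1, was also lost with CHIR by state. Its level of 3.37 and 4.94 with CHIR overlapped the 5.48 and 4.72 of untreated WT cells (-0.17, adjusted p = 0.744), and in 6 libraries it had the same value as Utf1 -5769, from 1 deposited peak. The promoter Utf1 -1 had 5.54 and 6.30 with CHIR, below the 8.28 and 7.91 of untreated WT cells (-0.35, SE 0.20, limma, adjusted p = 0.329). Utf1 +6198 (chr7:139949808-139950161) was higher in value with CHIR, at 6.56 and 9.12 against 4.82 and 5.34 in WT cells. Its difference of 0.66 (SE 0.21, limma, adjusted p = 0.065) passed with median centring (0.68, adjusted p = 0.0483) and among the regions open in all libraries (0.61, adjusted p = 0.0212). In 4 libraries, among them replicate 1 of CHIR and of WT on day 3, it had the same value as Utf1 +6887. At Utf1 +6887, CHIR against WT gave 0.29 (SE 0.22, limma, adjusted p = 0.494). The highest median level of the gene was at Utf1 -12893 (10.5), in an intron of Kndc1 and open in all 16 libraries.

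Utf1 +8367 (chr7:139951986-139952312, in an intron of Gm16201) was gained in KO and in MUT cells on day 3, comparisons that share the WT libraries. Its level was 4.22 and 4.62 in KO cells and 4.03 and 4.01 in MUT cells, against 2.70 and 2.83 in WT cells. Both pairs lay above WT, but with the 1 library without a peak (KO replicate 2 of day 2) filled, limma called neither (0.93, SE 0.37, adjusted p = 0.204 for KO and 0.67, SE 0.37, adjusted p = 0.908 for MUT).

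Lin28a, which has more than 1 TSS, had 7 regions, of which 3 were gained or lost by state and 0 were called by level in limma. At an unadjusted p under 0.05 were 6 of its 49 tests. Over all 56543 regions, 8163 were higher and 8156 lower at that p between days, and 5722 and 6799 with CHIR. The counts of the other comparisons are given above. No excess at Lin28a is read from the 6. Lin28a +512 (chr4:134011662-134012218, in an intron) was closed in both KO and both CHIR libraries of day 3, and open in both libraries of KO with XAV, MUT and WT cells. Its level was 4.47 and 4.40 in KO cells with XAV, 3.97 and 3.49 in KO cells, 6.24 and 4.60 in MUT cells, 4.01 and 3.66 in WT cells with CHIR and 5.52 and 5.43 in WT cells. The KO and CHIR pairs lay below the XAV and WT pairs. None of the differences passed in limma, with -0.44 (SE 0.22, adjusted p = 0.417) for KO against WT, -0.37 (SE 0.22, adjusted p = 0.360) for CHIR against WT and 0.05 (SE 0.22, adjusted p = 0.937) for KO with XAV against KO.

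Lin28a +512 and Gdf3 +1475 were the 2 regions of the 34 that were lost in KO and with CHIR and gained in KO with XAV. The comparisons share libraries (WT of day 3 in the first pair, KO of day 3 in the first and last), and the states are a description. The share of all regions with this pattern was not counted, so 2 of 34 cannot be called many or few. After normalization, Lin28a +512 differed in level by only 0.05 (SE 0.22) between KO with XAV and KO. Lin28a -521 (chr4:134019202-134019520) was lost in KO cells of day 3, at 3.29 and 2.82 against 4.04 and 3.82 in WT cells (-0.27, SE 0.16, adjusted p = 0.542). On day 2 it was closed in all 6 libraries. Lin28a -156 was lost in KO cells of day 2, at 3.74 and 3.23 against 3.93 and 3.87 in WT cells, a log2 difference of -0.06 (adjusted p = 1.00). The strongest region of the gene by median was Lin28a -17264 (chr4:134035938-134036280, intergenic), open in all 16 libraries at 6.82 to 10.1.

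Lin28b had the highest single level among the 34 regions (16.04) and the 1 call between days. Lin28b +23813 (chr10:45446214-45446557, in an intron, with the SOX match) was open in all 16 libraries. Its level was 10.3 and 5.76 in KO cells, 6.12 and 9.76 in MUT cells and 11.4 and 9.67 in WT cells on day 3. On day 2 it was 14.9 and 10.8 in KO cells, 13.7 and 12.3 in MUT cells and 14.7 and 16.04 in WT cells. Each of the 6 lines was lower on day 3 than on day 2, and across lines the days overlapped slightly, with the highest day 3 level (11.4) above the lowest day 2 level (10.8).

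Over the 6 untreated lines, the log2 difference of Lin28b +23813 was -0.61 (SE 0.11), a 1.53-fold lower level on day 3 (limma, adjusted p = 0.00217). With the cell line as a fixed replicate block the adjusted p was 0.00566, and leaving out each library kept the difference between -0.73 and -0.49 with the call. KO cells with XAV had 10.0 and 12.2 there and WT cells with CHIR 8.45 and 7.85. CHIR against WT gave -0.32 (SE 0.20, adjusted p = 0.368) and MUT against WT on day 3 -0.42 (SE 0.20, adjusted p = 0.839).

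The other 2 tested Lin28b regions were not called between days in limma. The difference was -0.16 (SE 0.09, adjusted p = 0.261) at Lin28b -3119 and 0.15 (SE 0.08, adjusted p = 0.237) at Lin28b -16233. Lin28b -3598 was not among the tested regions. Lin28b -3119, the strongest of the gene by median (10.7), had 10.1 and 6.11 in KO cells and 12.3 and 10.8 in WT cells on day 3. KO against WT gave -0.41 there (SE 0.16, limma, adjusted p = 0.262), and the 6.11 is from the KO library that stood apart. Lin28b -16233 (chr10:45486264-45486594) ran between 8.40 and 10.8 over all libraries. Lin28b -3598 (chr10:45473639-45473964, in an intron) was gained in KO cells of day 2 by state, at 6.09 and 5.36 against 4.83 and 5.17 in WT cells, and the filled fit gave 0.29 (adjusted p = 1.00).

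The cell line pairs the days, and the paired fit added 1 region. Utf1 +678 (chr7:139944303-139944631, in the intron of Utf1) was higher on day 3 with cell line as a fixed replicate block (0.55, adjusted p = 0.0491) and not without it (SE 0.22, adjusted p = 0.102). It also passed with the strongest summit inside the region (0.41, adjusted p = 0.0134) and without WT replicate 1 of day 2 (0.72, adjusted p = 0.0459). In 11 libraries this region shared 1 deposited interval, and so its value, with the promoter Utf1 -1, whereas the 3 replicate 2 libraries of day 2, which are marked as merged, had a separate peak at 3.05 to 3.73.

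The difference between genotypes was also compared across days by an interaction term in limma. For KO against WT and for MUT against WT, 0 of 28 regions changed (0 at an unadjusted p under 0.05), and 0 of 56543 over all regions.

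Around these 6 genes, 30 other genes of the pluripotency network had 143 tested regions. With CHIR 8 (5.59%) were higher and 13 (9.09%) lower, where 3.33% and 5.94% of all tested regions were, with a median log2 difference of 0.01 against 0.03 over all. Sox2, the partner of OCT4, had a distal region at +84728 with a level of 2.62 to 2.92 with CHIR, against 7.00 to 8.65 in WT cells (-1.34, SE 0.20, adjusted p = 0.000344), and its promoter region at +668 was higher (0.66, SE 0.18, adjusted p = 0.0272). Otx2, an epiblast and forebrain homeobox gene, had a lower region at -27246 (-1.35, SE 0.22, adjusted p = 0.000704).

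Klf4, a naive pluripotency factor, had a region at +67387 that was called in 3 comparisons, which share libraries. It was higher in KO cells with XAV, at 8.40 to 9.67 against 2.52 to 4.39 in KO cells (1.29, SE 0.25, adjusted p = 0.013). It was lower with CHIR, at 2.27 to 3.74 against 5.39 to 8.46 in WT cells (-1.08, SE 0.25, adjusted p = 0.00922), and lower on day 3 than on day 2 (-0.59, SE 0.14, adjusted p = 0.0122). With XAV in KO cells 2 other regions of the network were lower, Esrrb +5944 (-1.06, SE 0.26, adjusted p = 0.0497) and Tbx3 -56999 (-1.45, SE 0.28, adjusted p = 0.0136), the T-box factor gene. In all, 1 of 143 was higher (1.2% of all tested regions were) and 2 were lower (0.485%). In KO against WT on day 3, 0 regions of the network were higher (0.447% of all) and 1 was lower (0.895%), at Esrrb +48813 (-0.91, SE 0.21, adjusted p = 0.0411). Esrrb encodes an orphan nuclear receptor of naive cells. Between days 4 (2.8%) were higher and 9 (6.29%) lower, where 5.4% and 7.61% of all were.

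Of 19 gene symbols listed for the LIN28 and let-7 pathway, 16 had regions, with 90 tested. With CHIR 6 (6.67%) were higher and 6 (6.67%) lower, where 3.33% and 5.94% of all tested regions were. Between days 10 (11.1%) were higher and 13 (14.4%) lower, where 5.4% and 7.61% of all were, with a median log2 difference of 0.07 against 0.03 over all. Arid3b, a let-7 target, had a region at -11214 with a level of 5.83 to 6.76 in KO cells, against 3.16 to 4.04 in WT cells on day 3 (0.97, SE 0.20, adjusted p = 0.022). That region was lower in KO cells with XAV than in KO cells (-0.80, SE 0.20, adjusted p = 0.0486) and higher with CHIR than in WT cells (1.23, SE 0.20, adjusted p = 0.000603). Regions of the gene did not move 1 way. Arid3b +4055 was higher in KO cells with XAV than in KO cells (0.97, SE 0.22, adjusted p = 0.0291), and with CHIR Arid3b +8061 was higher (0.96, SE 0.21, adjusted p = 0.00769) and Arid3b +3052 lower (-0.69, SE 0.17, adjusted p = 0.016). Mycn, another let-7 target, had a region at +13262 with 3.42 to 5.81 with CHIR, against 10.6 to 11.9 in WT cells (-1.20, SE 0.18, adjusted p = 0.000358). Drosha, the nuclear microRNA processing enzyme, had a region at +18175 that was lower on day 3, at 3.00 to 6.10 against 6.79 to 8.84 on day 2 (-0.81, SE 0.14, adjusted p = 0.00105).

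In median base composition the 34 windows were close to the rest. Their median GC content was 55.8%, with a range of 45.7% to 79.0%, against a median of 53.3% over all regions, and the median number of CpG was 6 against 5. Lin28b -16233 stood out, with 79.0% GC and 53 CpG, the highest of the 34, and was open in all 16 libraries.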

How the data were processed

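Omni-ATAC libraries of 16 differentiating ESC cultures were used as deposited peak lists. According to the study's methods the authors trimmed, aligned (mm10), deduplicated and called peaks with the ENCODE ATAC-seq pipeline, and the list names give a p of 0.01 and a shift of reads for Tn5. Column 7 of the deposited lists is a ratio, the fold enrichment at the summit, and columns 8 and 9 are −log10 p and −log10 q as the authors' peak caller gave them. The lists hold no read counts, so read depth is unknown, and their number limits the precision. By their names, the replicate 2 lists of day 2 came from merged data, and all lists were capped in length and cleared of blacklisted regions. The 2 deposited lists of the authors' own comparison were not used. Aligner and caller versions were not given in the sources used here.

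Duplicate intervals were reduced to the summit with the highest −log10 p, and the top 50000 were kept. Summits ± 150 bp were merged over libraries, and regions held by at least 2 libraries formed 80595 regions (median width 343 bp). Log2 levels were quantile-normalized and fitted with limma 3.58.1 (eBayes with trend, R 4.3.3) as 8 group means, with no pseudocount, since every level is above 0. The fit was tested on simulated data. The 2 libraries of each group were separate cell lines, numbered in accession order. The cell lines pair day 3 with day 2 (6 lines) and KO with XAV with KO (2 lines) by design, although deviations of the same line correlated weakly (r = 0.01 to 0.28). The alternatives were median centring, no normalization, regions open in all libraries, no filter (a library without a peak given its lowest level), the libraries of a comparison alone, cell line as a replicate block, other interval numbers, overlaps and TSS windows, and leaving out each library. The value of the strongest summit inside a region, a fill of 1, leaving out libraries in the filled fit and the OCT-SOX composite were added after seeing the data. The member genes, lists and tests were chosen with earlier results of these data known. Named regions are, per gene, the one closest to the TSS, the one with the highest median level and every one called, gained or lost. Pou5f1 -2014, Pou5f1 -14844, Pou5f1 -3670, Nanog -37905, Nanog +12590, Nanog -4790, Utf1 +678, Utf1 +6198, Utf1 +6887 and Lin28b -16233, and the regions of other genes, were named after their values were seen. Gene models came from GENCODE M21, and sequences were read from the RefSeq genome GRCm38.p6 with Python 3.11.15.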

Additional observations from a re-analysis of the deposited data

Results flagged for a closer look

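Among 56 tests for a library that stands apart (28 regions in the 6 untreated libraries of each day), 2 were past Dixon's critical value for 6 samples, and chance gives about 1 in 20. At Nanog +12590, WT replicate 2 of day 3 had a level of 3.85 against 5.17 to 6.18 in the other untreated day 3 libraries, with a gap of 0.691 of the range on the normalized log2 scale. At Utf1 +678, KO replicate 2 of day 3 had 3.94 against 7.08 to 8.28, with a gap of 0.708. At Utf1 +678 that library had a peak separate from that of the promoter.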

How the results depend on the processing

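Read depth is unknown, and 2 libraries a group limit every test. With no filter, the regions without a peak entered, and the limma calls became 2 higher and 3 lower for CHIR, 1 lower for KO against WT on day 3, 1 lower for KO with XAV against KO and 1 higher between days. Of the 2 higher for CHIR, Nanog -3589 is counted without a test of its own, since the CHIR libraries admitted it. Median centring gave 2 higher for CHIR, and fitting only the libraries of the comparison gave 0 lower for CHIR. With cell line as a fixed replicate block, and with the strongest summit inside each region, 1 was higher between days. The random replicate block changed no call. Without normalization, and among the regions open in all libraries, CHIR had 1 higher and 1 lower, but the lower one was Nanog -7, and among the regions open in all libraries, where Gdf3 +98 and Utf1 -5769 were not tested, the higher one was Utf1 +6198.

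The gained and lost states moved with the number of intervals kept. With the top 30000, gained regions were 0 for MUT on day 3, 1 for KO and 1 for MUT on day 2, 2 for CHIR and 1 for KO with XAV, and lost regions were 1 for MUT on day 3, 0 for KO on day 2 and 2 for KO with XAV. With the top 75000, gained regions were 2 for KO on day 3, 0 for KO on day 2 and 1 for KO with XAV, and lost regions were 1 for KO on day 3, 0 for KO on day 2, 1 for MUT on day 2 and 1 for KO with XAV. With all intervals of −log10 q of at least 2, gained regions were 0 for KO and 0 for MUT on day 3, 1 for KO on day 2, 0 for CHIR and 0 for KO with XAV, and lost regions were 0 for KO on day 3, 0 for KO on day 2 and 2 for CHIR. The cause of these moves was not tested.

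Leaving out 1 library at a time, which leaves a group with 1 library, gave 0 to 1 higher and 0 to 1 lower for CHIR and 0 to 1 higher and 1 lower between days. Gained regions then ran between 2 and 3 for KO with XAV, 3 and 4 for KO on day 3, 1 and 3 for MUT on day 3, 2 and 3 for KO on day 2, 1 and 3 for MUT on day 2 and 1 and 3 for CHIR. Lost regions ran between 1 and 2 for KO with XAV, 3 and 3 for KO on day 3, 1 and 2 for KO on day 2, 0 and 2 for MUT on day 2 and 6 and 8 for CHIR. Gained and lost states are easier to meet with a library left out. Their counts can therefore only stay or rise, and do not check the main counts. The sign turned for 2 differences in level that were not called, Lin28a +512 in KO with XAV against KO (-0.025 to 0.13) and Utf1 -6448 with CHIR (-0.39 to 0.043). Without normalization the median of all regions shifted by 0.17 for KO with XAV against KO.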
